A study of Homo sapiens with 8 samples.

Results

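The genes described here are 9 leukaemia drivers, suppressors and antigens, several of them known as mRNAs regulated by N6-methyladenosine (m6A): MYC, WT1, GATA2, LMO2, SP1, MLLT10, CCND1, TACC3 and PRAME. They were chosen by name, as all rows of the authors' deposited table that carry one of these symbols. All 9 symbols were found, out of 3114 gene names in the table, and they carried 13 of its 4626 features. Each of the 13 features was a single stretch of 50 nt, the width of 4511 of the 4626 features.

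m6A was compared between HL-60 cells given decitabine to 100 nM on 3 occasions (0 hours, 24 hours, then 48 hours) and HL-60 cells given its vehicle DMSO, with RNA taken from both at 72 hours. HL-60 is an established human promyelocytic leukaemia line, labelled wild type in both arms, and carries an amplified MYC locus. Decitabine is a deoxycytidine analogue that enters DNA and traps DNA methyltransferases. Fragmented total RNA was immunoprecipitated with an anti-m6A antibody and sequenced next to its input, which gave 8 libraries in 4 groups of 2 (m6A with decitabine, input with decitabine, m6A with DMSO and input with DMSO). The labels call the cultures duplicates and do not say that they were grown on separate occasions.

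m6A is placed on nascent mRNA by a METTL3 and METTL14 complex, is removed by FTO and ALKBH5, and is read by proteins that alter mRNA decay and translation. In acute myeloid leukaemia METTL3 is known to sustain translation of SP1 and MYC, and ALKBH5 is known to act on TACC3 mRNA. The mark lies mostly in long internal exons, around stop codons and in the stretch that follows them. The other genes span the transcription factor network of blood stem and progenitor cells (GATA2, LMO2, WT1), a cofactor gene that is broken in leukaemia translocations (MLLT10), a G1 cyclin (CCND1) and a tumour antigen (PRAME).

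The authors' deposited table gives 1 log ratio and 1 p-value per feature and no value per library, so no replicate spread, level or depth can be set beside any ratio, and the identity of the cells could not be checked against marker levels. The smallest absolute log ratio in it was 0.501 and the largest p-value 0.00455, so the authors' deposited table holds features that had already passed a threshold. Which treatment is the numerator is not stated. Features are therefore called positive or negative: if the ratio is decitabine over DMSO, positive features were higher with decitabine, and the other orientation exchanges them. A change in m6A and a change in RNA level cannot be told apart, with the correction for input not given in the sources used here. Folds are the larger arm over the smaller, and p-values are the authors' and are not marked as adjusted. In each gene below, features are numbered from the gene's 5' end.

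The 9 genes split into 4 with positive features only (WT1, LMO2, MLLT10 and CCND1) and 5 with negative features only (MYC, GATA2, SP1, TACC3 and PRAME). Of the 9 genes, 5 had a single listed feature, and the other 4 had 2 features each, both negative. Of all genes with exactly 2 features, 20.1% had both negative, 32.8% both positive and 47.1% one of each sign. The authors' deposited table gave 4 of the 13 features as positive and 9 as negative, where 56.3% of all listed features were positive and 43.7% negative. Taking each gene's feature of smallest p-value, 4 of the 9 genes were positive, where 58.9% of all listed genes were, and 5 negative, where 41.1% were. Among features with p under 0.001 the balance turned, with 4 positive and 3 negative member features (60.6% of all such features were positive). Among ratios of 2-fold or more it was 4 and 5 (57.6% positive over all such features). The median ratio of the member features was 3.79-fold in the authors' deposited table, against 5.17-fold over all listed features. The positive side was the larger in size, with ratios between 3.69-fold and 614-fold, while per the authors' deposited table the negative side ran between 1.67-fold and 5.74-fold. Over all listed features the positive side was also the larger, with a median of 10.1-fold against 3.95-fold. Ratios of 10-fold or more numbered 3 of the 13, where 38.5% of all listed features reached that size.

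**Figure D1:**
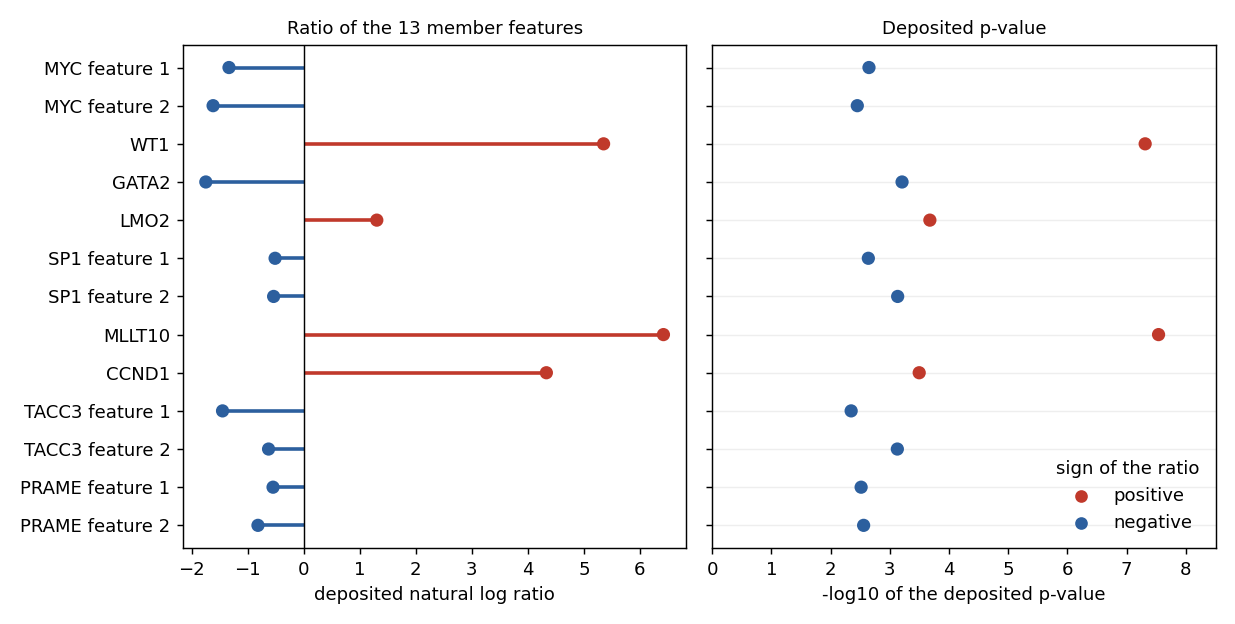
Natural log ratio (left) and -log10 p-value (right) of the 13 member features as the authors' deposited table gives them, with 1 row per feature, positive ratios in red and negative ratios in blue. WT1, MLLT10 and CCND1 lie at 5.35, 6.42 and 4.33 on the natural log scale, WT1 and MLLT10 have the smallest p-values (4.87e-08 and 2.89e-08), and the 9 negative features lie between -1.75 and -0.51.

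The ratios could be read back as fractions of whole numbers. With the log taken as natural, 4582 of the 4626 ratios in the authors' deposited table (99.0%) equalled a fraction of whole numbers with a denominator of up to 2000, to a relative tolerance of 1e-08 for denominators up to 100 and of 1e-10 above. Taken as base 2, 18 features (0.389%) did. The fractions are given below in lowest terms. Whether the terms come from totals of the 2 arms is not known, and if they do, those totals can be any common multiple of the terms. The authors' scaling or rounding of counts was not given in the sources used here. All 13 member ratios could be written this way. In 3 of them the smaller term was 1, all 3 positive (WT1, MLLT10 and CCND1), where 37.3% of all positive and 10.7% of all negative features with a fraction had a smaller term of 1. The smaller term of the 9 negative features ran from 29 to 1958 with a median of 320. Over all listed features with a fraction in the authors' deposited table, the median smaller term was 9 on the positive side and 79 on the negative side.

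**Figure D2:**
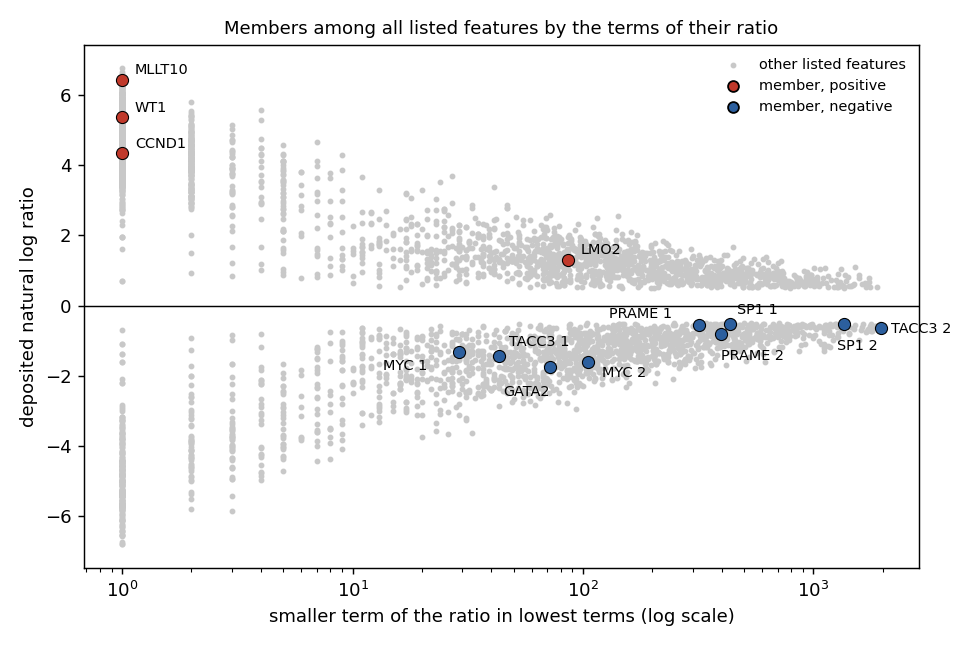
Natural log ratio of each listed feature of the authors' deposited table against the smaller term of its ratio in lowest terms (log scale), with 1 grey point per feature and the members in red (positive) or blue (negative). The 44 features with no such fraction are not drawn. WT1, MLLT10 and CCND1 lie in the column at 1, and LMO2 and the 9 negative member features lie among ratios with larger terms.

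MYC, the transcription factor that drives growth and ribosome production in many leukaemias, had negative features at both of its listed places. The authors' deposited table puts MYC feature 1 (ENSG00000136997.20, hg38 chromosome 8, 127737627 to 127737676, plus strand) at a natural log ratio of -1.33, a 3.79-fold ratio of 110 to 29 in lowest terms (p = 0.00225). MYC feature 2 (127738586 to 127738635) stood at -1.62 in the authors' deposited table, a 5.04-fold ratio of 529 to 105 (p = 0.00354). Both lay in the 5' part of the gene span, 2193 nt and 3152 nt from its 5' end, with 909 nt between them. The feature with the larger ratio had the larger p-value, and 90.2% of all listed features had a smaller p than MYC feature 2 in the authors' deposited table.

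SP1, a zinc finger activator that binds GC-rich promoters, had the smallest ratios of the 9 genes and some of the largest terms. In the authors' deposited table SP1 feature 1 (ENSG00000185591.10, chromosome 12, 53382926 to 53382975, plus strand) was at -0.51, a 1.67-fold ratio of 723 to 434 (p = 0.00230). SP1 feature 2 (53383225 to 53383274) was at -0.54 in the authors' deposited table, a 1.71-fold ratio of 2333 to 1364 (p = 0.000736). The pair lay 249 nt apart near the start of the gene, 2750 nt and 3049 nt from its 5' end, and their folds differed by a factor of 1.03. The authors' deposited table holds 2022 negative features, of which 99.5% had a larger ratio than SP1 feature 1 and 97.6% a larger ratio than SP1 feature 2. The values of SP1 thus sat close to the threshold of the table, unlike those of MYC, whose features stood near the middle of the negative ones by size.

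GATA2, a zinc finger factor of blood stem cells and a gene of inherited leukaemia risk, carried the largest negative ratio of the 9 genes. The authors' deposited table gave its feature (ENSG00000179348.12, chromosome 3, 128481068 to 128481117, minus strand) a log ratio of -1.75, which is 5.74-fold or 413 to 72 in lowest terms (p = 0.000621). It lay near the 3' end of the gene, at 1646 nt. GATA2 also had the smallest p-value among the negative member features.

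LMO2, a LIM-domain protein that bridges GATA factors and TAL1 in a single DNA-bound complex and is activated by translocation in T-cell leukaemia, had a positive feature. The authors' deposited table put it at 1.30 (ENSG00000135363.12, chromosome 11, 33859075 to 33859124, minus strand), a 3.69-fold ratio of 317 to 86 (p = 0.000210). LMO2 was the only positive member whose ratio had a smaller term above 1. Its fold was close to that of MYC feature 1 in size, 3.69 against 3.79, with the sign reversed.

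WT1, a zinc finger factor overexpressed in most acute myeloid leukaemias and used there as a marker of residual disease, had a listed ratio of another order. Its precision is unknown, as no count is given. The authors' deposited table lists it at 5.35 (ENSG00000184937.15, chromosome 11, 32388274 to 32388323, minus strand), which is 211-fold, or 211 to 1 in lowest terms (p = 4.87e-08). The authors' deposited table has 113 smaller p-values, and 8.10% of its positive features had a larger ratio. The feature was 499 nt short of the gene's 3' end, the same distance as the LMO2 feature from its own 3' end.

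MLLT10, which encodes a cofactor of the histone methyltransferase DOT1L and is fused to KMT2A or PICALM in leukaemia, had the largest ratio and the smallest p-value of the 9 genes. It stood at 6.42 in the authors' deposited table (ENSG00000078403.17, chromosome 10, 21673490 to 21673539, plus strand), 614-fold or 614 to 1 in lowest terms (p = 2.89e-08). By size its ratio ranked 12th among the 2604 positive features that the authors' deposited table holds. As for WT1, no count is given and the precision of the ratio is unknown. The feature was 70091 nt short of the gene's 3' end, well inside a span of 209875 nt. PICALM, its fusion partner in some leukaemias, had a negative ratio of 3.23-fold (1629 to 505, p = 0.000407), per the authors' deposited table.

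CCND1, the cyclin that activates CDK4 and CDK6 in G1, also had a ratio with a smaller term of 1. The authors' deposited table put it at 4.33 (ENSG00000110092.4, chromosome 11, 69651450 to 69651499, plus strand), 76-fold or 76 to 1 in lowest terms (p = 0.000319), at 2975 nt before the gene's 3' end. Its p-value was far larger than those of WT1 and MLLT10, and 32.6% of all listed features had a smaller one in the authors' deposited table. The ratios of WT1, MLLT10 and CCND1 were the 3 of 13 that are a multiple of 0.5, where 30.6% of all listed ratios were (44.2% of the positive and 13.1% of the negative ones). Without such ratios, 1 positive and 9 negative member features remain, where 45.3% of the remaining features of the whole table were positive. A term of 1 in lowest terms does not fix the total of that arm, and no count is given, so the precision of these 3 ratios is unknown. Such ratios can arise where 1 arm is near the lowest counts, which was not tested.

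TACC3, which stabilises spindle microtubules in dividing cells and is an ALKBH5 target in leukaemia stem cells, had negative features that differed in size. In the authors' deposited table TACC3 feature 1 (ENSG00000013810.19, chromosome 4, 1728285 to 1728334, plus strand) was at -1.45, a 4.26-fold ratio of 183 to 43 (p = 0.00449). TACC3 feature 2 (1730846 to 1730895) was at -0.63 in the authors' deposited table, a 1.87-fold ratio of 3665 to 1958 (p = 0.000745). The folds differed by a factor of 2.27, the widest difference within any of the 4 genes with a pair of features. The smaller ratio had the larger terms and the smaller p-value, and the p-value of TACC3 feature 1 was among the largest in the table, with 99.4% of the listed features below it.

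PRAME, a cancer-testis antigen that represses retinoic acid receptor signalling and is a target of T-cell therapy, had a pair of negative features side by side. The authors' deposited table gave PRAME feature 1 (ENSG00000185686.18, chromosome 22, 22549870 to 22549919, minus strand) a log ratio of -0.55, or 1.73-fold and 553 to 320 (p = 0.00305). PRAME feature 2 (22549771 to 22549820) was at -0.82 in the authors' deposited table, or 2.26-fold and 898 to 397 (p = 0.00277). With 49 nt between them on the same transcript, they may share RNA fragments and are not separate observations. The PRAME gene lies within the span of the immunoglobulin lambda locus (IGL) in the RefSeq table, and no other member feature overlapped a further gene there.

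The members MYC, SP1, TACC3 and PRAME, had a pair of features each, and all 4 pairs were negative at both places. Of the 607 genes with exactly 2 listed features, 20.1% had both negative, 32.8% both positive and 47.1% one of each sign. The features of a pair share a transcript and are not independent.

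The 13 features lay at various places along the genes. All were inside the RefSeq span of their gene, at a median of 66.6% of its length from the 5' end, against 81.9% for the 4240 listed features that lay inside a matched span. The features of WT1 and LMO2 (2 of 13) were within 1000 nt of the 3' end, where 17.3% of those 4240 features were. The same 2 were the members in the last 10% of the span, which held 38.4% of the 4240. The pairs of MYC, SP1 and TACC3 were all nearer to the 5' end, none of them past 42.3% of the span. Spans include introns, so a share of the span is not a share of the mRNA, and exons and untranslated regions were not annotated here.

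**Figure D3:**
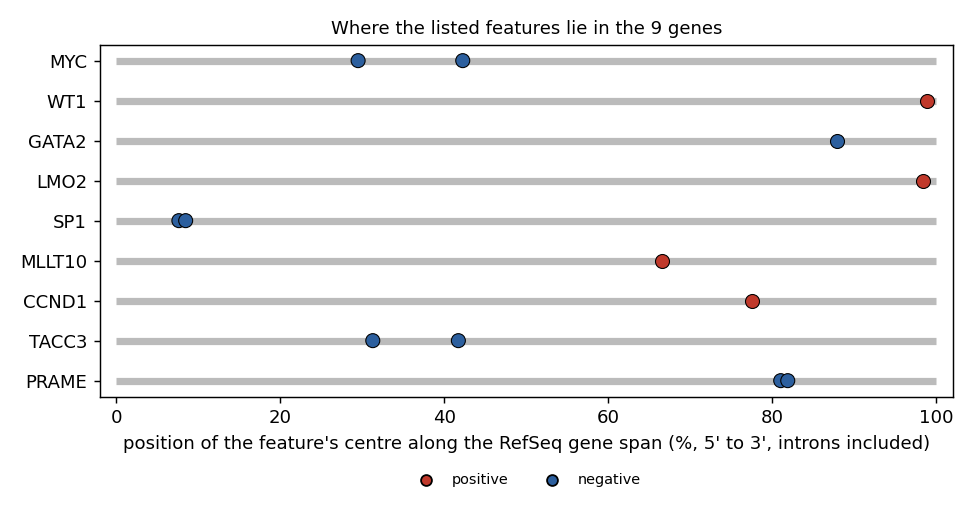
Centre of each member feature along the RefSeq span of its gene, in percent from the 5' end to the 3' end with introns included, 1 row per gene, positive features in red and negative features in blue. The positive features of WT1 and LMO2 sit at 98.9% and 98.4%, and the SP1 pair sits at 7.65% and 8.48%.

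A wider list of 86 leukaemia transcription factors and fusion genes, mRNAs reported as m6A-regulated, leukaemia antigens, cyclin partners and SP family genes held 23 genes that were in the authors' deposited table. By the feature of smallest p-value, 12 of the 23 were positive and 11 negative, where 58.9% of all listed genes were positive. Their 41 features were 17 positive and 24 negative, where 56.3% of all listed features were positive. The median of the 41 was 4.51-fold, against 5.17-fold over all listed features. Of the 46 transcription factor and fusion genes 14 were listed, 10 positive and 4 negative. Of the 21 reported m6A targets 6 were listed, 1 positive and 5 negative by the same measure, where 41.1% of all listed genes were negative. Among the 5, 1 also had a positive feature. HMMR, a spindle protein and leukaemia antigen, was the only one of 12 antigens listed, at a negative 3.24-fold ratio by the authors' deposited table, and 0 of 5 cyclin partners were listed. Over the whole list 26.7% of the genes (23 of 86) were listed. The share of all assayed genes that is listed is unknown, because only features past a threshold are given. The classes hold few genes, and their shares were not tested against each other or against the whole list.

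AFF1, MGA, FOXO3 and TCF3, of the class of transcription factor and fusion genes, were led by positive ratios with a smaller term of 1 or 2. In the authors' deposited table AFF1, a KMT2A fusion partner in infant leukaemia, was at 326-fold (p = 2.87e-09), the MAX-binding repressor MGA at 357-fold (p = 5.24e-08) and the E-protein gene TCF3 at 224-fold (p = 1.36e-06), each over 1. The authors' deposited table gives FOXO3, a forkhead factor restrained by AKT, positive ratios of 172.5-fold and 74-fold near its 5' end and negative ratios of 10.8-fold and 1.68-fold near its 3' end. Further places listed by the authors' deposited table were negative in AFF1 (6.35-fold), and positive (2.56-fold) or negative (1.79-fold and 1.81-fold) in MGA. NUP214, fused to DEK or ABL1 in leukaemia, was positive at 3.81-fold by the authors' deposited table, with the terms 2303 to 605 and p = 9.01e-05. For the repressor BCL11A the authors' deposited table holds a positive ratio of 4.51-fold (p = 0.000126) and 3 negative ones of 2.23-fold, 5.51-fold and 143-fold. The last was 143 to 1 in lowest terms. ZEB2, a zinc finger repressor, was negative by the authors' deposited table, at 3.49-fold (1679 to 481, p = 0.000647).

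The relatives of SP1 did not share its small ratios. SP3, which competes with SP1 for GC boxes, was negative in the authors' deposited table at both places, with 3.46-fold (277 to 80, p = 1.27e-05) and 8.78-fold (430 to 49). The authors' deposited table lists SP4 at a positive 172-fold over 1 (p = 1.81e-06), a positive 6.38-fold and a negative 9.05-fold ratio. SP1 and SP3 were thus negative at all of their listed features, and SP4 had both signs.

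Among the reported m6A targets, FOXM1, a cell cycle transcription factor whose transcript is an ALKBH5 target in glioblastoma, was negative by the authors' deposited table, at 4.65-fold (93 to 20, p = 1.26e-06) and at 1.72-fold. BMI1, a Polycomb protein needed by leukaemia stem cells, was positive by the authors' deposited table, at 28.8-fold (1180 to 41, p = 0.000218). Of the 5 listed genes of this wider list with 2 features, 2 held both signs, where 47.1% of all such genes did. The others were negative (SP3 and FOXM1) or positive (CEBPA) at both places. Of the 5 with 3 or 4 features, all 5 held both signs, where 77.4% of all such genes did.

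**Figure D4:**
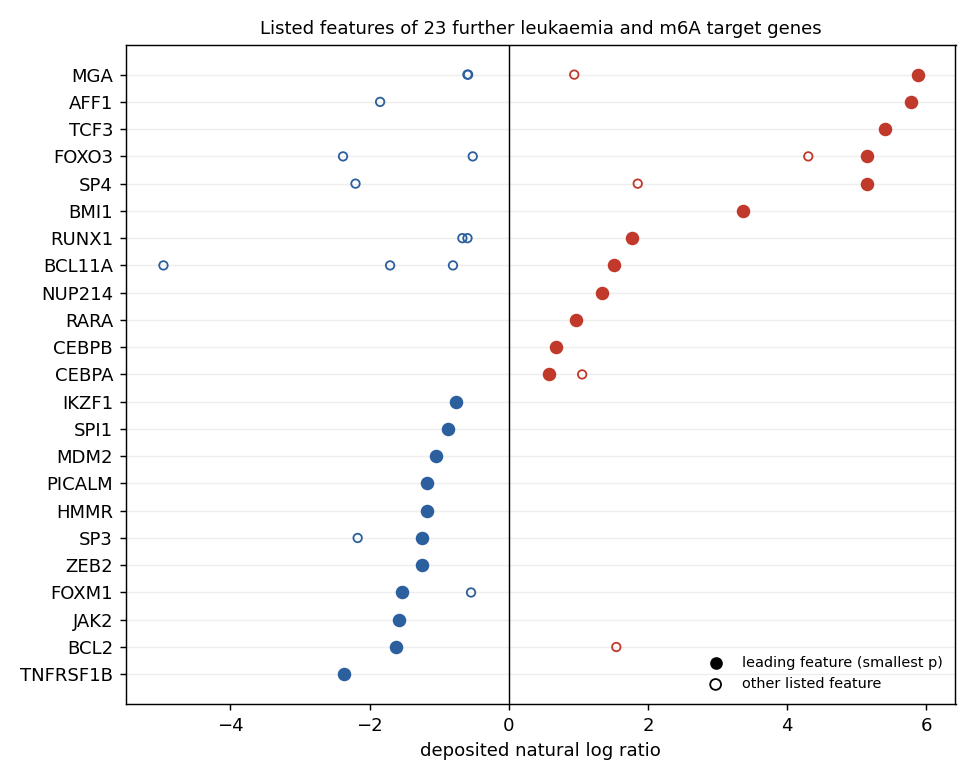
Natural log ratio of every listed feature of the 23 further leukaemia and m6A target genes in the authors' deposited table, 1 row per gene, ordered by the leading feature (filled, smallest p-value), with other features open, positive in red and negative in blue. Of the 23 leading features 12 are positive, and 7 genes have features on both sides of 0.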

How the data were processed

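Reads were aligned with STAR 2.7.3a to hg38, as far as the submitters' processing notes name tools and builds. The log ratios were computed by the authors and deposited without a stated base, and were read as natural log values because their exponentials are fractions of whole numbers. The p-values per feature were also computed by the authors and deposited with no mark of adjustment. The scoring tool, the correction for input and the way of combining replicates were not given in the sources used here, and the depth of each library is unknown.

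Rows were selected by gene name. Fractions were found by limiting the denominator to 2000, and checked on simulated data. Positions are 1-based on hg38 with both ends included. Spans of genes are those of RefSeq on GRCh38.p14, whose primary assembly is that of hg38. No genome was used, so no feature sequence, exon or motif was read. No test was run: the members are described by counts and medians beside those of the whole table. The members and the wider gene list were chosen with earlier results of these data known. All 9 members are named, as are, from the wider list, the 12 genes with the smallest p-values. A gene first planned for the wider list was left out of it, its counts and its figure, and is not reported here. CEBPA and HMMR were named after their values were seen. The software was Python 3.11.15 with matplotlib 3.10.9, scipy 1.17.1, numpy 2.4.6 and pandas 2.3.3. Alternatives were a p-value limit of 0.001, a minimum of 2-fold, leaving out ratios that are multiples of 0.5, and choosing each gene's largest ratio.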

Additional observations from a re-analysis of the deposited data

How the results depend on the processing

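The balance of signs among the members depended on which features were kept. With p-values under 0.001 alone, 4 features were positive and 3 negative (57.1% positive against 30.8% over all 13), with the same share by gene (57.1% against 44.4%), and the median ratio was 5.74-fold against 3.79-fold. Without ratios that are multiples of 0.5, 1 feature was positive and 9 negative (10% positive). By gene, 1 was positive and 5 negative (16.7% positive), as WT1, MLLT10 and CCND1 dropped out. Of the 23 listed genes of the wider list, 52.2% were positive, against 47.8% by the largest ratio per gene. Without multiples of 0.5, 8 genes of that list were positive and 14 negative (36.4% positive). TCF3 dropped out, and AFF1, MGA and FOXO3 changed sign. Their features of smallest p-value were then negative, at 6.35-fold, 1.79-fold and 10.8-fold. Other settings kept the majority sign. The count of 3 multiples of 0.5 did not move with whole-number ratios only, denominators up to 6 or a relative tolerance of 1e-06. These settings could not move it: WT1, MLLT10 and CCND1 had a smaller term of 1 and the other member ratios 29 or more. No paired analysis was possible because the deposited table holds no value per library. The planned motif count was not run, as no genome was used. Without counts or depth, no interval could be given for any ratio.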
